A study of Mus musculus with 18 samples.

Results

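The genes described here are the core of the transforming growth factor beta (TGF-beta) system in muscle: the ligands Tgfb1, Tgfb2 and Tgfb3, the receptors Tgfbr1 and Tgfbr2, the induced matrix protein Tgfbi, and the latent binding proteins Ltbp1, Ltbp2, Ltbp3 and Ltbp4. They were chosen by gene name, and all 10 were found among 31665 genes with an exon length (48709 listed). For 9 of them the deposited name matched exactly. Ltbp4 is listed with a numbered suffix and was matched through its identifier, ENSMUSG00000040488.

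TGF-beta ligands are made as precursors, cleaved, and secreted in a complex that keeps them inactive, with the prodomain of the precursor still wrapped around the ligand. Latent binding proteins tie that complex to the fibrillin microfibrils of the matrix, where integrins, proteases and mechanical pull can set the ligand free. The free ligand joins the type II receptor (Tgfbr2) to the type I receptor (Tgfbr1), which passes the signal on through SMAD proteins, and in dystrophic muscle this pathway is known for its part in fibrosis.

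RNA of whole quadriceps was sequenced from 18 mice, with 1 library per mouse. WT mice were C57BL/6J, and dyW mice were B6.129S1(Cg)-Lama2tm1Eeng/J, in which the gene of the laminin alpha 2 chain is knocked out; they model the congenital muscular dystrophy of LAMA2 deficiency. The untreated mice, 3 WT and 4 dyW, carry an age label of 5 weeks. The treatment cohort, with an age label of 3 weeks, held 3 WT and 3 dyW mice given PBS and 2 WT and 3 dyW mice given TD139, but their protocol puts the collection of muscle at 5 weeks, so that their age is uncertain. TD139 inhibits galectin-3, a carbohydrate-binding lectin, and PBS is the buffer that the control mice are named for. How much TD139 was given, how and for how long is not given in the sources used here. Both sexes are present. Animals carry separate numbers in the labels, so the p-values below measure the spread between mice.

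Depth was 15.8 M (mega) exon reads in dyW PBS replicate 1, 27.6 M in dyW PBS replicate 3 and 32.9 to 45.2 M in the other libraries. Lama2, the gene targeted in dyW mice, stood at 0.545 to 0.831 RPKM in untreated dyW and 4.46 to 5.02 RPKM in untreated WT mice, so that its RNA was reduced and not absent. RPKM is the number of exon reads per kilobase of exon and per M reads, as the authors deposited it. Lgals3, which encodes galectin-3, stood at 1.65 ± 0.317 RPKM (SD, n = 3) in untreated WT and 47.9 ± 12.2 RPKM (SD, n = 4) in untreated dyW muscle. The fit described below scales for library composition, which RPKM does not, and gave a rise of 4.30 ± 0.23 (SE) on the log2 scale (edgeR adjusted p = 4.75e-05). Myofibre markers were the strongest signal in every group, with a summed level of 30360 to 61442 RPKM over 6 genes. WT PBS replicate 1 stood apart from the other WT PBS mice: its 6 Schwann cell markers summed to 838 RPKM against 58.3 and 73.5, its 6 adipocyte markers to 520 against 145 and 159, and its 6 fibroblast markers to 962 against 463 and 484. It was the highest of its group in 9 of the 10 TGF-beta genes, and dyW PBS replicate 3 was the lowest of its group in 9.

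Below are the promoter windows, 250 bases before to 50 bases after the transcript start, of the genes with the greatest rise in untreated dyW muscle (Ltbp2, Tgfb1 and Tgfbi), and of Tgfb2, whose fitted change was the smallest of the 10. They are copied from the RefSeq table for GRCm38.p6, in the direction of transcription. Capitals mark matches to the GC box, which reads GGGCGG, to the core of the CAGA box, which reads CAGACA, to the AP-1 site, which reads TGAGTCA, and to the TATA box, which reads TATAAA. Each was searched on both strands, so a match on the other strand is printed as the reverse complement.
Tgfb1: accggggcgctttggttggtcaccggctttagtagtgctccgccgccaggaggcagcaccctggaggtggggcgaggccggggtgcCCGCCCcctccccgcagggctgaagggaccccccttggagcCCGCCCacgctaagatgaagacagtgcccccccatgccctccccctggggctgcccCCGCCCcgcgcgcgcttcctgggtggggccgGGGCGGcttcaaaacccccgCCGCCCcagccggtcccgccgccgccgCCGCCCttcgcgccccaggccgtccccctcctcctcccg
Ltbp2: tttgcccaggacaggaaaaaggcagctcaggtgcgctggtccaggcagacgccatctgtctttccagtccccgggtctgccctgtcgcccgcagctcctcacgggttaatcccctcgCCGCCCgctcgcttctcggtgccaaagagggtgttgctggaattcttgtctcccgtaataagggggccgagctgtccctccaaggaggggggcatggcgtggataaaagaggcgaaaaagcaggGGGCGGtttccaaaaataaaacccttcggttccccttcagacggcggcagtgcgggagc
Tgfbi: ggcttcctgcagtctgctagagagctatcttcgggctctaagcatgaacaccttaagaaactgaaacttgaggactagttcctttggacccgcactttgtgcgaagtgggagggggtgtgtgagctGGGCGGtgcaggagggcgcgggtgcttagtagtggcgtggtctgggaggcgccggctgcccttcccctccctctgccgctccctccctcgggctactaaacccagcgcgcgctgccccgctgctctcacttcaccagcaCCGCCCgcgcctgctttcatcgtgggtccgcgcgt
Tgfb2: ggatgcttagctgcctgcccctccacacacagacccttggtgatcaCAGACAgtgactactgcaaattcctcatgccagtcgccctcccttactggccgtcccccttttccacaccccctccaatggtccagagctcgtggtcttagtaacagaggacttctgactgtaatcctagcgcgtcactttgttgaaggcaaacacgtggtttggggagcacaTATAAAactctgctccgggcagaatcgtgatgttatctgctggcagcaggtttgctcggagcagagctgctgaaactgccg

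The Tgfb1 window (chr7:25686752-25687051, plus strand) has a GC content of 77% and holds 6 GC boxes. The Ltbp2 window (chr12:84876442-84876741, minus strand; GC 61%) holds 2, at -133 and -9 from the start, and the Tgfbi window (chr13:56609336-56609635, plus strand; GC 63.3%) holds 2, at -124 and 16. None of these 3 windows matched a CAGA box core, an AP-1 site or a TATA box. The Tgfb2 window (chr1:186705940-186706239, minus strand; GC 54.3%) has no GC box, but a CAGA box core at -204 and a TATA box at -31. Among 32851 mouse promoter windows of that length, 35.7% hold a GC box, 21% a CAGA box core, 13.6% a TATA box and 5.2% an AP-1 site. In all, 9 of the 10 genes had at least 1 window (13 windows). Ltbp3 alone of them matched the AP-1 site, at -6, where it overlaps a CAGA box core at -1, and the Tgfbr2 window matched none of the 4 motifs. These matches describe letters, not binding.

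The first comparison, named in the series design, sets untreated dyW against untreated WT quadriceps. Of the 10 genes, 7 were higher in dyW muscle (Tgfb1, Tgfb3, Tgfbr2, Tgfbi, Ltbp2, Ltbp3 and Ltbp4), 1 was lower (Tgfbr1), and Tgfb2 and Ltbp1 did not pass the test. Among all 14846 genes tested 49.8% were called, 24.7% higher and 25.1% lower, so a call by itself is common here. The median change of the 10 genes was 0.73 on the log2 scale, beside 0.03 over all genes. Calls are from edgeR's quasi-likelihood test on total exon reads, with TMM scaling for library composition and a threshold of 0.05 on the Benjamini-Hochberg adjusted p. After that scaling the dyW and WT mice did not overlap for the 8 genes called, as for 53.8% of all genes; on unscaled RPKM Tgfbr1 overlapped and Ltbp1 was separate, as were 61.2% of all genes. Scaling matters: deposited RPKM carries no such correction, and on it (limma on log2(RPKM + 0.1)) the median of all genes moved to 0.51. There 85.5% of all calls were higher, against 49.6% in the scaled fit. Of the 10 genes, 9 were called higher and 0 lower on RPKM, where 8929 of all 14846 genes were called, 7636 of them higher.

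**Figure D1:**
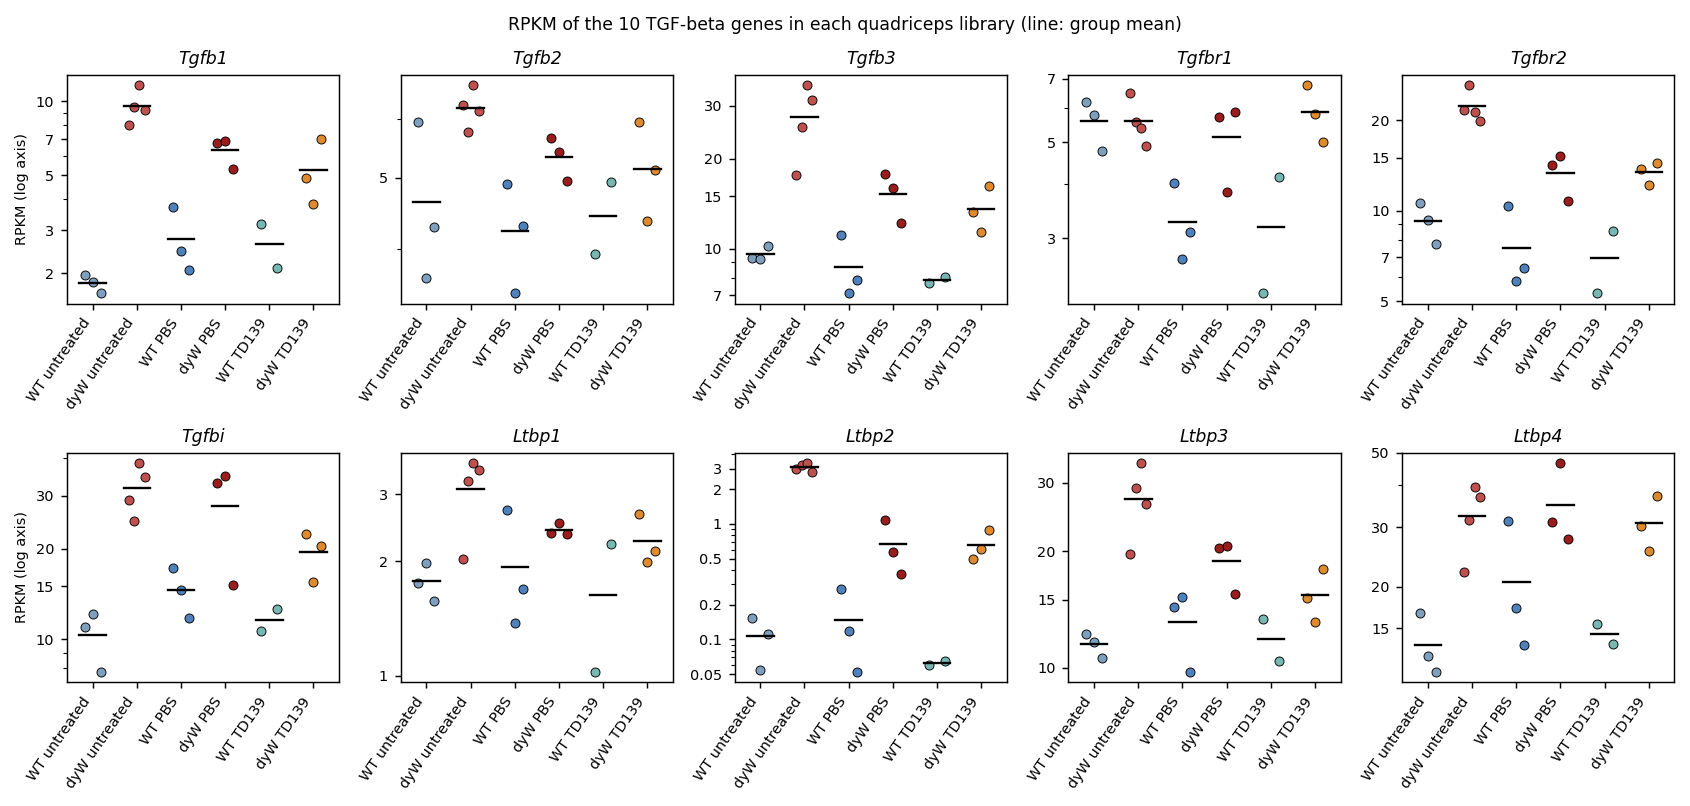
RPKM (log axis) of each of the 10 genes in every library, by group; points are mice and lines are group means. Ltbp2 shows the widest gap between genotypes, from a mean of 0.107 in untreated WT to 3.12 RPKM in untreated dyW, whereas Tgfbr1 overlaps between the untreated groups on this scale and was lower in dyW after TMM scaling; Tgfb2, not called, was lower in dyW by the TMM fit and higher on the RPKM scale.

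Among the ligands, Tgfb1, the form most studied in fibrosis and immune control, changed most. Its level was 1.97, 1.85 and 1.66 RPKM in the untreated WT mice and 8.04, 9.43, 11.6 and 9.18 RPKM in the untreated dyW mice. Every dyW mouse was above every WT mouse, and the fitted log2 fold change was 1.83 ± 0.13 (SE; edgeR adjusted p = 1.08e-04), or 3.57-fold.
Tgfb3, a ligand known from palate and lung development, had the highest level per exon length of the 3 ligands in 18 of 18 libraries. It measured 9.33, 9.26 and 10.2 RPKM in untreated WT and 17.7, 25.5, 35.3 and 31.5 RPKM in untreated dyW mice. The groups were separate, with dyW replicate 1 the lowest of the mutants, and the log2 fold change was 0.95 ± 0.20 (SE; edgeR adjusted p = 0.00447).
Tgfb2, known from heart and skeletal development, was at 5.94, 3.66 and 4.29 RPKM in WT and at 6.28, 5.77, 6.68 and 6.16 RPKM in dyW mice. Its fitted log2 change was -0.11, with a 95% interval of -0.40 to 0.19 (edgeR adjusted p = 0.514), and on unscaled RPKM it turned to 0.45 (limma on log2(RPKM + 0.1), adjusted p = 0.0466). Its direction therefore rests on the scaling.

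The make-up of the ligand pool, which does not depend on library scaling, moved with genotype. The sum, unlike the shares, does depend on scaling. On unscaled RPKM, summed over the 3 ligands, untreated WT mice had 14.8 to 17.2 RPKM and untreated dyW mice 32.0 to 53.6. Tgfb1 made up 11.4% ± 1.11 (SD, n = 3) of that sum in WT and 22.4% ± 2.33 (SD, n = 4) in dyW mice, while Tgfb2 went from 28.6% ± 5.16 to 14.9% ± 3.26. The share of Tgfb3 was 59.99% ± 5.11 and 62.7% ± 5.35, within the spread of the mice. Tgfb1 exceeded Tgfb2 in 8 of 10 dyW libraries and in 0 of 8 WT libraries. These shares are descriptions without a test.

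**Figure D2:**
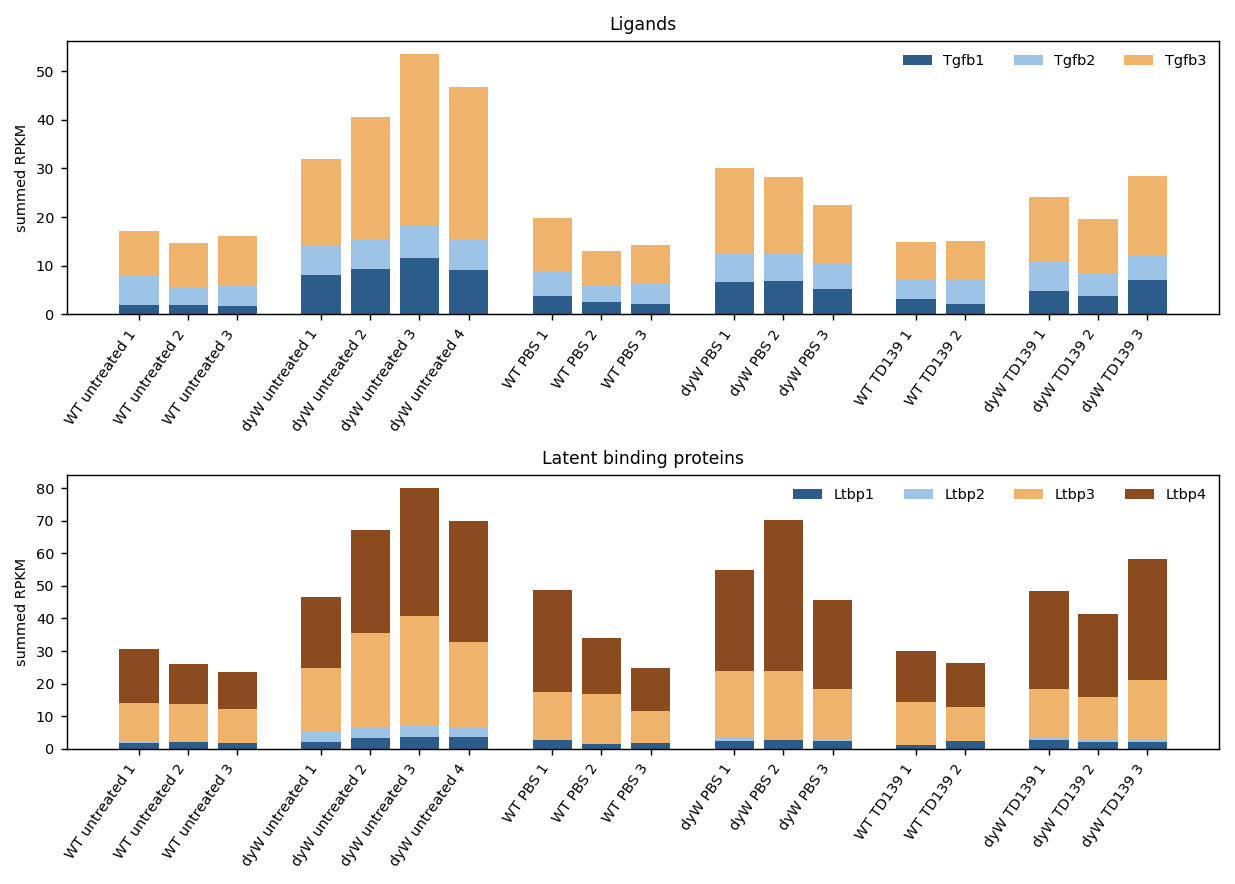
Summed RPKM of the 3 ligands (top) and the 4 latent binding proteins (bottom), stacked by gene, 1 bar per mouse. Bar heights are on unscaled RPKM and depend on scaling, while the shares within a bar do not. Tgfb3 is the tallest ligand segment in 18 of 18 mice, Tgfb1 takes 11.4% of the bar in untreated WT and 22.4% in untreated dyW muscle on average, and Ltbp3 with Ltbp4 make up most of the lower bars.

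The receptors went opposite ways in the scaled fit. Tgfbr2, which binds the ligand first, stood at 10.6, 9.32 and 7.72 RPKM in untreated WT and at 21.5, 26.2, 21.3 and 19.8 RPKM in untreated dyW mice. All dyW mice were higher, with a log2 fold change of 0.73 ± 0.15 (SE; edgeR adjusted p = 0.00372).
Tgfbr1, the signalling kinase of the pair, was at 6.19, 5.78 and 4.77 RPKM in WT and at 6.50, 5.55, 5.39 and 4.91 RPKM in dyW mice, which overlap. After TMM scaling the ranges were 6.31 to 7.78 in WT and 4.27 to 5.99 in dyW, and Tgfbr1 fell by 0.54 on the log2 scale (SE 0.15; edgeR adjusted p = 0.0150), but on unscaled RPKM the change was 0.0030 (limma, adjusted p = 0.987) and without WT replicate 2 or dyW replicate 3 the adjusted p was 0.0591 or 0.0539. A ratio within a library needs no scaling: Tgfbr2 over Tgfbr1 was 1.65 ± 0.0593 (SD, n = 3; 1.61 to 1.72) in WT and 4.0 ± 0.572 (SD, n = 4; 3.31 to 4.71) in dyW mice, and the 2 groups did not overlap.

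Tgfbi encodes a secreted adhesion protein named for its induction by TGF-beta. It measured 11, 12.1 and 7.80 RPKM in untreated WT and 29.1, 24.7, 38.4 and 34.7 RPKM in untreated dyW mice. The groups were separate, and the log2 fold change was 1.07 ± 0.19 (SE; edgeR adjusted p = 0.00212).

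Among the latent binding proteins Ltbp2, the member that is not known to bind the latent ligand and associates with elastic fibres, had the greatest change of the 10 genes. It had 45, 17 and 37 reads in the untreated WT mice (0.155, 0.0547 and 0.112 RPKM) and 1182, 1185, 1116 and 886 reads in the dyW mice (3.00, 3.27, 3.35 and 2.84 RPKM). The log2 fold change was 4.33 ± 0.26 (SE; 95% interval 3.73 to 4.93; edgeR adjusted p = 7.40e-05), or 20.1-fold. Even so, it was the least abundant of the 10 per exon length in 16 of 18 libraries; its share of the summed latent binding proteins was 0.396% ± 0.162 (SD, n = 3) in WT and 4.89% ± 1.09 (SD, n = 4) in dyW mice.
Ltbp3, which takes part in the secretion of the latent complex and in bone growth, was at 12.2, 11.7 and 10.6 RPKM in WT and 19.6, 29.1, 33.7 and 26.4 RPKM in dyW mice. Every dyW mouse was higher (log2 fold change 0.68 ± 0.15 SE, edgeR adjusted p = 0.00670).
Ltbp4, which is known as a modifier gene of muscular dystrophy in mice, was at 16.6, 12.4 and 11.2 RPKM in WT and 22.0, 31.6, 39.5 and 37.0 RPKM in dyW mice. It was also higher throughout, by 0.73 ± 0.19 (SE; edgeR adjusted p = 0.0123), and without WT replicate 3 the adjusted p was 0.0571. Ltbp1, which binds latent ligand and fibrillin, did not pass the test, at 1.75, 1.98 and 1.57 RPKM in WT and 2.03, 3.24, 3.62 and 3.49 RPKM in dyW mice. Its log2 fold change was 0.24 (95% interval -0.18 to 0.67, edgeR adjusted p = 0.299). Without dyW replicate 1, the lowest mutant, it was 0.41 with an adjusted p of 0.0264. Leaving out any 1 of the 7 mice gave 0.17 to 0.41, with edgeR adjusted p from 0.0264 to 0.553. On unscaled RPKM the change of Ltbp1 was 0.75 with an adjusted p of 0.0157 (limma).

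In the authors' deposited table of dyW against WT, Ltbp2 has a log2 fold change of 4.303, Tgfb1 of 1.81 and Tgfbr1 of -0.5593. Tgfb2 and Ltbp1 are the members with an FDR p above 0.05 in the authors' deposited table, at 0.6145 and 0.4248.

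Cell type markers were read beside these genes, with their summed levels on unscaled RPKM and their calls from the scaled fit, in which 24.7% of all genes were called higher and 25.1% lower. In untreated mice the 6 macrophage markers summed to 42.2 to 66.5 RPKM in WT and 298 to 354 in dyW mice, and 5 of 6 were called higher. The 6 fibroblast markers summed to 432 to 605 and 706 to 1279 RPKM (2 of 6 higher), the 6 tendon markers to 110 to 170 and 515 to 865 (3 higher, 1 lower), the 6 Schwann cell markers to 22.8 to 43.6 and 87.7 to 151 (6 higher), and the 6 adipocyte markers to 377 to 632 and 792 to 2870 (1 higher, near the share of all genes). The 6 smooth muscle and pericyte markers summed to 80.0 to 111 and 140 to 201 RPKM (4 higher, 1 lower), the 6 endothelial markers to 35.3 to 46.5 and 58.9 to 77.7 (2 higher), and the 6 satellite cell markers to 22.8 to 31.3 and 49.1 to 62.1 (1 higher, 2 lower). Myofibre markers summed to 40581 to 51347 RPKM in WT and 30360 to 38197 in dyW mice, with 3 of 6 lower. Platelet (4.98 to 8.15 and 14.96 to 40.4 RPKM), T cell (0.293 to 0.855 and 1.57 to 2.90) and neutrophil markers (0.424 to 0.470 and 1.41 to 14.3) were low in WT, and 3, 2 and 4 of their 6 genes respectively had a mean under 0.1 RPKM. No marker was at 0 in all libraries. The part of these cells in the TGF-beta gene changes was not tested, and in bulk tissue more cells of a type cannot be told from more RNA per cell.

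The wider pathway was read from 7 lists of 117 entries (Pmepa1, Skil and Smad7 stand in 2 lists), chosen by function. The counts in these lists stand beside 24.7% of all genes called higher and 25.1% called lower, and no list was tested against another. Of 23 textbook TGF-beta target genes, 16 were higher and 1 lower in untreated dyW muscle, with a median log2 change of 1.11 beside 0.03 over all genes. Timp1, an inhibitor of matrix proteases, rose by 4.59 ± 0.38 in the scaled fit (SE, edgeR adjusted p = 1.37e-04). Its unscaled means were 1.87 RPKM in WT and 65.1 RPKM in dyW mice. Postn, the matricellular protein periostin, rose by 3.72 ± 0.26, Cdkn1a, the cell cycle inhibitor p21, by 3.00 ± 0.25, and Tagln, a smooth muscle actin-binding protein, by 1.52 ± 0.14. Of 16 microfibril and latent complex partners, 12 were higher and 1 lower (median 1.40). Mfap2 (2.27 ± 0.27), Mfap5 (1.94 ± 0.23) and Emilin1 (1.87 ± 0.18), which are microfibril and elastic fibre glycoproteins, rose, as did Fbln2, fibulin-2 (1.11 ± 0.16).

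Of 13 matrix and secreted proteins that bind or inhibit TGF-beta family ligands, 7 were higher and 0 lower (median 0.77). Vasn, a membrane-bound ligand trap, rose by 1.10 ± 0.15 in the scaled fit. The small leucine-rich proteoglycans Bgn (2.53 ± 0.14, unscaled means 28.4 RPKM in WT and 239 in dyW), Aspn (1.98 ± 0.15) and Lum (1.60 ± 0.18) rose too. Of the same class, Dcn, decorin (-0.0083, edgeR adjusted p = 0.970), and Fmod, fibromodulin (-0.48, edgeR adjusted p = 0.125), were not called; both were named after their values were seen. Among 15 genes of ligand activation and prodomain cleavage, 5 were higher and 1 lower (median 0.31), a share called below the 49.8% of all genes: the matrix proteases Mmp14 (2.23 ± 0.26) and Mmp2 (1.73 ± 0.26) and the urokinase receptor Plaur (1.79 ± 0.37) rose, while Itgb6, an integrin subunit of an epithelial activator of latent ligand, fell by 0.90 (SE 0.17), a call lost on unscaled RPKM (limma, adjusted p = 0.158 and 0.164 with pseudocounts of 0.1 and 1). On unscaled RPKM 12 of these 15 were higher and 0 lower. On that scale 8929 and 8722 of all 14846 genes were called with pseudocounts of 0.1 and 1, and 7636 and 7434 of them were higher.

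Of 18 SMADs and their regulators, 3 were higher and 7 lower (median -0.02), a share called near the 49.8% of all genes. Tgif2, a SMAD corepressor, rose by 1.62 ± 0.22 and Pmepa1, a feedback inhibitor, by 1.26 ± 0.18. Smad3, the transducer of TGF-beta receptors, fell by 1.36 in the scaled fit (SE 0.18, edgeR adjusted p = 6.52e-04). Its unscaled means were 16.9 RPKM in WT and 9.75 RPKM in dyW mice. Usp15, a deubiquitinase of the pathway, fell by 1.13 (SE 0.12). On unscaled RPKM 9 of the 18 were higher and 4 lower. The share higher is near that of all genes on that scale, where 8929 of 14846 were called, 7636 of them higher and the rest lower (limma, pseudocount 0.1). Of 11 coreceptors and receptor partners, where the share called was also near that of all genes, 4 were higher, among them Eng, endoglin (0.61 ± 0.11), and Cd109 (1.02 ± 0.19), and 2 were lower, Zfyve9, the SMAD anchor SARA (-1.80, SE 0.22), and Strap (-0.44, SE 0.11), which on unscaled RPKM turned to 0.11. Of 20 other ligands and receptors of the superfamily tested, 2 were higher and 8 lower (median -0.71): the activin and BMP receptors Acvr2b (-2.34, SE 0.21), Acvr2a (-1.31, SE 0.19), Bmpr1a (-1.19, SE 0.15) and Bmpr2 (-0.85, SE 0.13) were lower, and on unscaled RPKM 4 of the 20 were higher and 7 lower. The counts of the 20 on unscaled RPKM stand beside the same 8929 genes called there, 7636 of them higher and the rest lower. Smad3, Acvr2a, Acvr2b, Bmpr1a and Bmpr2 were lower than WT in mean RPKM as well (Smad3 above, Bmpr2 from 7.60 to 6.14, Acvr2b from 2.25 to 0.648).

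**Figure D3:**
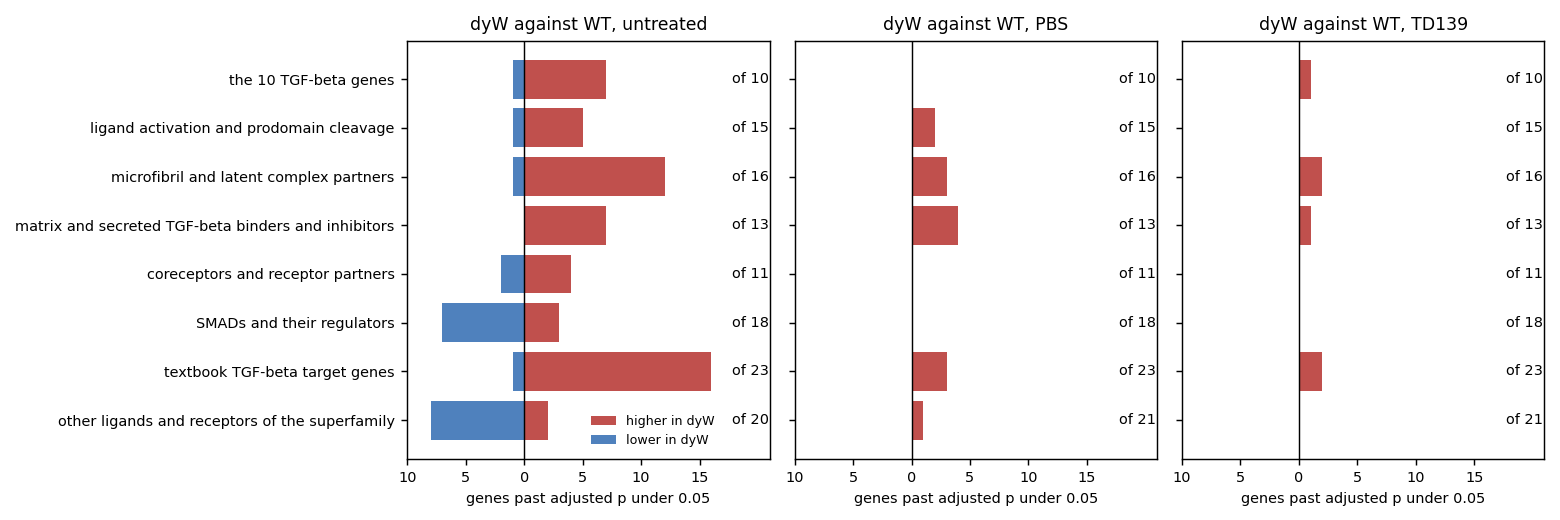
Number of genes past the threshold (edgeR, adjusted p under 0.05), higher to the right and lower to the left of 0, for the 10 genes and 7 pathway lists in the 3 comparisons of dyW with WT; the number tested is at the right edge. Untreated dyW muscle shows 16 of 23 target genes and 12 of 16 microfibril genes higher, against 3 of each with PBS and 2 of each with TD139. Of all genes tested, 24.7% were called higher in untreated mice, 2.40% with PBS and 0.757% with TD139, so calls fell over all genes as well. Strap, 1 of the coreceptors counted as lower, turned on unscaled RPKM.

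The second comparison asks whether the genotype difference was also present in mice given PBS, which share no library with the untreated cohort. None of the 10 genes passed the test (0 of 10), where 2.68% of 15331 genes were called, 2.40% higher and 0.280% lower. In DESeq2 2 of the 10 passed, beside 864 of the 15331 genes. Of the 10, 5 had an unadjusted p under 0.05 (edgeR), and the share of all genes under that level was not counted. The median of the 10 was 0.52, beside -0.03 over all genes. After TMM scaling the mice did not overlap for Tgfb1, Tgfb3, Tgfbr2 and Ltbp2, as for 17.6% of all genes; on unscaled RPKM Tgfb2 and Ltbp3 were separate too, as were 24.6% of all genes.

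**Figure D4:**
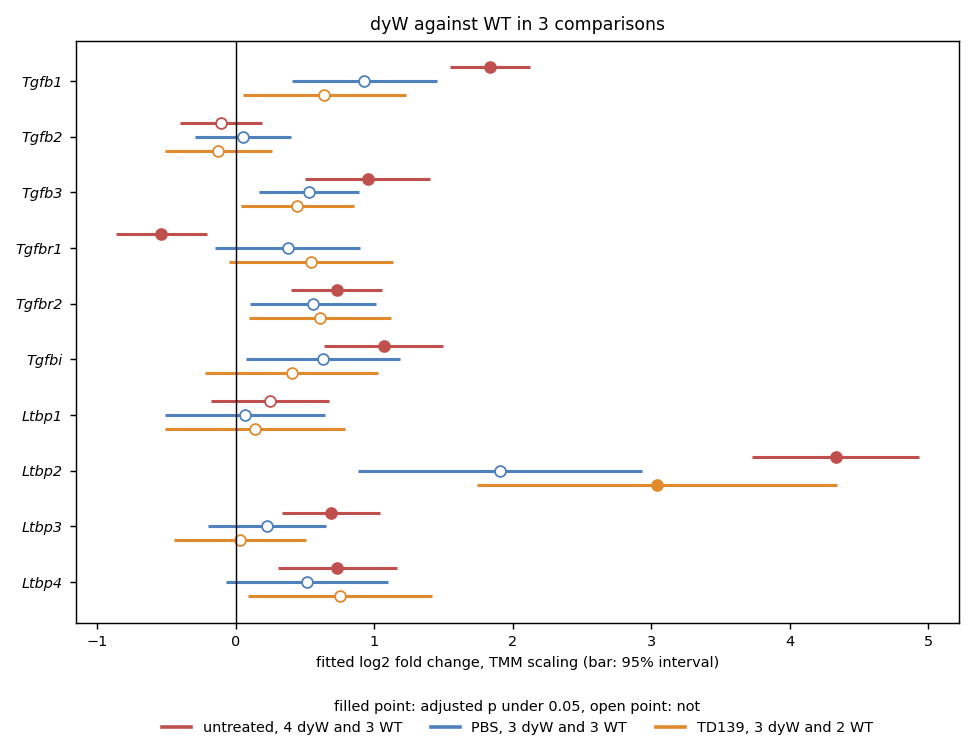
Fitted log2 fold change with its 95% interval for dyW against WT in untreated, PBS and TD139 mice; filled points passed the threshold. Ltbp2 is farthest right in each comparison (4.33, 1.91 and 3.04), and Tgfbr1 lies at -0.54 in untreated mice, a direction that unscaled RPKM did not show, and at 0.37 and 0.54 in the other comparisons; Tgfb2 lies near 0, at -0.11 in untreated mice, with 0.45 on unscaled RPKM.

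Ltbp2 came nearest to the threshold. Its reads were 86, 44 and 17 in WT PBS and 154, 192 and 90 in dyW PBS mice, that is 0.274, 0.118 and 0.0528 against 1.09, 0.573 and 0.369 RPKM. All dyW mice were above all WT mice, with a log2 fold change of 1.91 ± 0.47 (SE; edgeR adjusted p = 0.0535). Without WT PBS replicate 1, the library with high Schwann cell and adipocyte markers, it was 2.54 with an adjusted p of 0.0171. Leaving out each of the 6 mice in turn gave 1.495 to 2.54 for Ltbp2, with edgeR adjusted p from 0.0171 to 0.232.
Tgfb1 was at 3.72, 2.47 and 2.06 RPKM in WT PBS and 6.76, 6.89 and 5.32 RPKM in dyW PBS mice. The groups were again separate, the highest WT value being replicate 1, and the log2 fold change was 0.93 ± 0.24 (SE, edgeR adjusted p = 0.0638). Without WT PBS replicate 1 it was 1.09 with an adjusted p of 0.0435. Over the 6 fits that each left out 1 mouse it ran from 0.81 to 1.09, with edgeR adjusted p from 0.0435 to 0.231.
Tgfb3 was at 11.1, 7.10 and 7.86 against 17.7, 15.9 and 12.2 RPKM (0.53 ± 0.17 SE, edgeR adjusted p = 0.133), and Tgfbr2 at 10.3, 5.84 and 6.43 against 14.1, 15.2 and 10.8 RPKM (0.56 ± 0.21 SE, edgeR adjusted p = 0.218). In both genes WT replicate 1 and dyW replicate 3 were the nearest neighbours across the genotypes.

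Tgfbi was spread in the dyW PBS mice, at 33.0, 34.8 and 15.1 RPKM, against 17.3, 14.6 and 11.7 RPKM in WT PBS. Replicate 3 lay among the WT mice. The log2 fold change of Tgfbi was 0.63 ± 0.25 (SE, edgeR adjusted p = 0.263), and without that replicate 0.90 with an adjusted p of 0.0323. Over the 6 fits that each left out 1 mouse it ran from 0.38 to 0.90, with edgeR adjusted p from 0.0323 to 0.574. Ltbp4 was at 31.4, 17.3 and 13.4 in WT and 31.1, 46.6 and 27.6 RPKM in dyW mice (0.51 ± 0.27 SE, edgeR adjusted p = 0.400), and Ltbp3 at 14.4, 15.3 and 9.79 against 20.3, 20.7 and 15.5 RPKM (0.22 ± 0.20 SE, edgeR adjusted p = 0.646). Tgfbr1 was at 4.01, 2.68 and 3.09 against 5.70, 3.84 and 5.88 RPKM (0.37 ± 0.24 SE, edgeR adjusted p = 0.506). The intervals of Tgfb2 (-0.30 to 0.40) and Ltbp1 (-0.51 to 0.64) spanned 0.

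The macrophage markers summed to 27.2 to 29.9 RPKM in WT PBS and 77.5 to 203 in dyW PBS mice (5 of 6 higher, beside 2.40% of all genes). The fibroblast markers summed to 463 to 962 and 484 to 1046 (0 of 6 called). In the other marker lists a single T cell marker was called, higher. Their median log2 changes ran from -1.54 for Schwann cell markers, high in WT PBS replicate 1, to 2.44 for T cell markers (2 tested). The part of these cells in the values of the 10 genes was not tested. In the pathway lists 3 of 23 target genes were higher with PBS (Postn 2.13 ± 0.37, Timp1 2.22 ± 0.49, Cdkn1a 1.48 ± 0.26) and 0 lower. Mfap4 (1.37 ± 0.23), Mfap2 (1.11 ± 0.23) and Mfap5 (0.98 ± 0.21) were the 3 of 16 microfibril genes called higher. Of the 13 binders and inhibitors 4 were higher: Lum (1.40 ± 0.23), Aspn (1.51 ± 0.28), Bgn (1.20 ± 0.29) and Fst, follistatin, which traps activin (0.93 ± 0.21). Mmp14 (1.09 ± 0.19), Mmp2 (1.21 ± 0.24) and Gdf6, a BMP family ligand (3.53 ± 0.74, at a mean of 0.0169 and 0.242 RPKM), completed the calls. None of the 18 SMADs and regulators or the 11 coreceptors was called by edgeR. Of these, 4 and 1 had an unadjusted p under 0.05, a share that was not counted over all genes. DESeq2 called 1 of the 18 lower, beside 864 of all 15331 genes called, 685 of them higher and the rest lower. Lum kept its call in all 14 alternatives. Mfap4 lost it in 1, Postn and Cdkn1a in 2, Timp1, Aspn and Mmp14 in 3, Mmp2 and Mfap5 in 4, Mfap2, Bgn and Gdf6 in 5 and Fst in 6. These losses came with 1 mouse left out, except 1 for Fst with the sex term (adjusted p = 0.0547). Without dyW PBS replicate 1 all of these but Lum and Mfap4 were lost, with adjusted p up to 0.206 for Bgn (edgeR), and without WT PBS replicate 3, where Mfap4 had 0.0513, up to 0.173 for Bgn.

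Under TD139, the genotypes were compared in 3 dyW and 2 WT mice. Ltbp2 was called higher (1 of 10, beside 1.04% of all genes called, 0.757% higher and 0.287% lower), and after TMM scaling the mice did not overlap for Ltbp2, Tgfb3, Tgfbr2 and Ltbp4, as for 37.7% of all genes. On unscaled RPKM Tgfb1, Tgfbr1 and Tgfbi were separate too, as were 51.4% of all genes. Ltbp2 had 18 and 19 reads in WT TD139 (0.0603 and 0.0655 RPKM) and 173, 210 and 307 reads in dyW TD139 mice (0.494, 0.610 and 0.885 RPKM). Its log2 fold change was 3.04 ± 0.59 (SE; edgeR adjusted p = 0.0359), and leaving out any 1 of the 5 mice gave 2.81 to 3.20 with adjusted p from 0.0803 to 0.231. The remaining genes were not called: Tgfbr2 was at 5.31 and 8.57 RPKM in WT and 13.7, 12.1 and 14.4 in dyW mice (0.61 ± 0.24 SE, edgeR adjusted p = 0.234), and Ltbp4 at 15.4 and 13.5 against 30.2, 25.6 and 37.1 (0.75 ± 0.31 SE, edgeR adjusted p = 0.255). Tgfb1 was at 3.18 and 2.10 RPKM in WT and 4.89, 3.84 and 7.04 in dyW mice (0.64 ± 0.27 SE, edgeR adjusted p = 0.273), and Tgfb3 at 7.66 and 8.07 against 13.3, 11.3 and 16.2 (0.44 ± 0.19 SE, edgeR adjusted p = 0.273). In the lists, Timp1 (3.14 ± 0.61) and Cdkn1a (1.85 ± 0.31) of the targets, Mfap4 (1.85 ± 0.27) and Mfap5 (1.18 ± 0.25) of the microfibril genes and Aspn (1.79 ± 0.32) of the binders were called higher. Of 13 alternatives, Mfap4 lost its call in 1, Aspn in 3 and Timp1, Cdkn1a and Mfap5 in 4 each, in every case with 1 mouse left out. All 5 were lost without WT TD139 replicate 1, with adjusted p from 0.124 to 0.264 (edgeR). The macrophage markers summed to 28.1 to 48.9 RPKM in WT TD139 and 110 to 128 in dyW TD139 mice (1 of 6 called higher, 0 lower, beside 0.757% and 0.287% of all genes). No marker of the other lists was called. Their median log2 changes ran from -0.94 for myofibre to 2.41 for neutrophil markers (2 tested). The part of these cells in these values was not tested.

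Whether the galectin-3 inhibitor changed these genes was asked by comparing TD139 with PBS mice within each genotype, comparisons that share the PBS and TD139 libraries with those above. None of the 10 genes passed in dyW mice (0 of 10; 0% of all genes called by edgeR), none had an unadjusted p under 0.05, and DESeq2 called 0 of the 10 and 4 genes in all. The fitted changes ran from -0.45 for Tgfbi to 0.24 for Tgfbr1. For Tgfb1, with 6.76, 6.89 and 5.32 RPKM under PBS and 4.89, 3.84 and 7.04 under TD139, the mice overlapped on both scales (14.3% of all genes did not after TMM scaling, and 14.1% on unscaled RPKM) and the 95% interval was -0.74 to 0.29. Tgfbi, at 33.0, 34.8 and 15.1 RPKM under PBS and 22.4, 15.5 and 20.5 under TD139, overlapped too, with an interval of -1.0 to 0.11. Tgfb2 (-0.35 to 0.34) and Tgfb3 (-0.48 to 0.24) had the narrowest intervals and Ltbp2 (-0.91 to 1.02) the widest. In the authors' deposited table of this comparison Tgfbi has a log2 fold change of -0.4418 and an FDR p of 0.8523.

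In WT mice TD139 gave no call among the 10 genes either (0% of all genes by edgeR, 3 genes in DESeq2, and 0 of the 10 with an unadjusted p under 0.05). Ltbp2 had the lowest value, -1.08 with an interval of -2.34 to 0.18, on 86, 44 and 17 reads under PBS and 18 and 19 under TD139. The groups overlapped, because the lowest PBS mouse had 17 reads; groups did not overlap for 9.07% of all genes after TMM scaling and for 9.31% on unscaled RPKM. The difference of the TD139 effect between dyW and WT mice was not called for any of the 10 (0% of all genes; 1 gene in DESeq2).

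**Figure D5:**
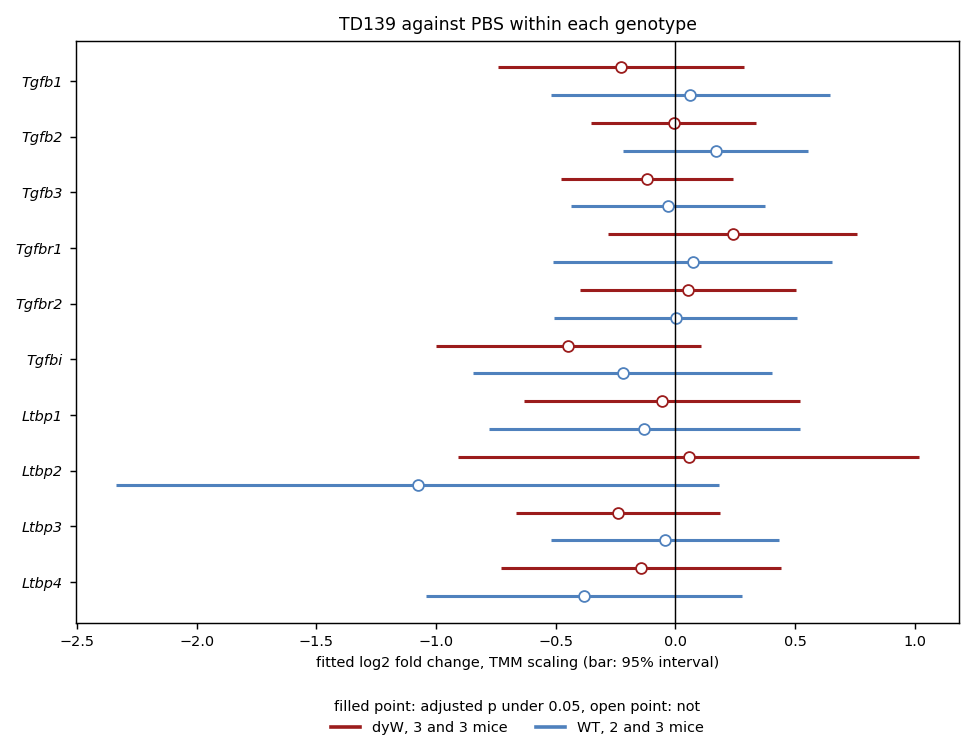
Fitted log2 change of each gene under TD139 against PBS, with its 95% interval, in dyW and in WT mice (TMM scaling). All 20 intervals include 0; Ltbp2 has the widest in each genotype, -0.91 to 1.02 in dyW and -2.34 to 0.18 in WT.

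The size of the genotype difference was then compared between the PBS and the untreated cohort on all 18 libraries. Ltbp2 was the gene called among the 10, with a difference of -2.42 ± 0.57 (SE; edgeR adjusted p = 0.0460), beside 0.526% of all genes called lower and 1.20% higher. The values behind it were 3.12 ± 0.237 (SD, n = 4) RPKM in untreated dyW against 0.677 ± 0.371 (SD, n = 3) in dyW PBS mice, and 0.107 and 0.148 RPKM in the matching WT groups. The adjusted p was 0.0564 with the sex label as a term and above 0.05 in 9 of 13 fits that each left out 1 mouse (up to 0.122, without dyW PBS replicate 3). Tgfb1 (-0.89 ± 0.28 SE, edgeR adjusted p = 0.0861) and Tgfbr1 (0.92 ± 0.30 SE, edgeR adjusted p = 0.0929) were not called. PBS, labelled age and cohort differ together here and cannot be told apart.

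Across all 6 groups, the RPKM values of Tgfb1, Tgfb3, Tgfbr2 and Ltbp2 in the 8 WT libraries all lay below the lowest of the 10 dyW libraries. The share of all genes that are separate over this split was not counted on either scale, so the counts here are descriptions of the 10 genes. After TMM scaling Ltbp2 was still separate, with 0.294 RPKM in the highest WT and 0.389 in the lowest dyW library, while Tgfb1 overlapped across groups (4.15 in WT TD139 replicate 1 and 3.97 in dyW TD139 replicate 2), as did Tgfb3 and Tgfbr2. On unscaled RPKM, 1 WT library was above the lowest dyW library for Tgfbi and Ltbp4, 2 for Ltbp1, 3 for Tgfb2 and Ltbp3 and 5 for Tgfbr1. After TMM scaling these counts were 4 for Tgfbi, 2 for Ltbp4, 6 for Ltbp1, Ltbp3 and Tgfbr1 and 7 for Tgfb2. By group mean Tgfb1 ran from 9.58 RPKM in untreated dyW through 6.32 in dyW PBS and 5.26 in dyW TD139 to 2.75 in WT PBS, 2.64 in WT TD139 and 1.83 in untreated WT mice; dyW PBS and dyW TD139 overlapped, as did WT PBS and WT TD139. For Ltbp2 the order was 3.12 RPKM in untreated dyW, 0.677 in dyW PBS, 0.663 in dyW TD139, 0.148 in WT PBS, 0.107 in untreated WT and 0.0629 in WT TD139; the dyW treatment groups overlapped, and so did WT PBS with untreated WT and untreated WT with WT TD139 mice. The Tgfbr2 to Tgfbr1 ratio, 4.0 in untreated dyW, was 2.75 ± 1.08 (SD, n = 3) in dyW PBS and 2.28 ± 0.261 (SD, n = 3) in WT PBS mice, whose ranges overlapped; under TD139 it was 2.03 to 2.86 in dyW and 2.07 to 2.37 in WT mice. Tgfb1 made up 23.5% ± 1.02 of the ligand sum in dyW PBS and 17.4% ± 2.52 in WT PBS mice (SD, n = 3 each). Under TD139 its share was 19.6% to 24.8% in dyW and 13.9% to 21.5% in WT mice, which overlapped.

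Genes whose pattern was most like that of a member were found over the 18 libraries, by the smallest root mean square difference of centred log2 expression among 10005 genes. Nearest to Ltbp2 were Timp1 (0.51), Lgals3 (0.54), the target of the inhibitor, and Col8a1, a short-chain collagen (0.55), on a scale where Ltbp2 itself varied by 1.82. Nearest to Tgfb1 (whose own variation was 0.68) were Plekho1 (0.14), the tumour necrosis factor receptor Tnfrsf1a (0.19) and the nuclear lamin Lmna (0.21). For Tgfbr2 they were the lysosomal enzymes Asah1 (0.14) and Arsb (0.15) and the Wnt carrier Wls (0.17), for Tgfbi Cxx1c, Col6a1 and Ackr1 (0.20 to 0.22), and for Ltbp4 the basement membrane collagen Col15a1 (0.18), the signalling inhibitor Spry1 (0.20) and Myadm (0.22). The libraries share tissue and genotype groups, so this likeness is a description.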

How the data were processed

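Quadriceps RNA was extracted with TRIzol and 1 ug went into stranded mRNA libraries, read as pairs of 58 bp, per the labels' protocols. The submitters' processing notes name mm10; the aligner, the counting tool, whether strand was used and whether a count is a read or a pair are not given in the sources used here. Per the file headers the authors deposited total and unique exon read counts and RPKM per gene, plus tables of their own comparisons with log2 fold changes and p-values.

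The test on counts was that of edgeR 4.0.16 under R 4.3.3 (TMM, filterByExpr with minimum count 10 and minimum total 15, quasi-likelihood F-test, Benjamini-Hochberg over all genes tested). The 7 untreated libraries were fitted alone, the 11 others as 4 groups with a shared spread, and all 18 for the difference between cohorts. Depth was 15.8 to 45.2 M exon reads. All reads of the 10 genes were unique. The pipeline was tested on simulated data. Alternatives were DESeq2 1.42.0, limma 3.58.1 on log2(RPKM + 0.1) and log2(RPKM + 1), RLE factors, no low-count filter, unique reads, a sex term, all libraries in 1 fit, and leaving out each mouse.

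The genes, lists and markers were chosen with earlier results of these data known. Named genes are the 10, Lama2, Lgals3, up to 4 called genes per list with the smallest p, and the 3 genes most like 5 of the members among those with a mean of at least 1 RPKM.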

Additional observations from a re-analysis of the deposited data

Results flagged for a closer look

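Among the 10 genes and the pathway lists, 4 genes had a genotype difference that itself differed between the PBS and the untreated mice (edgeR, all 18 libraries, adjusted p under 0.05), where 272 of 15771 genes were called in all (1.72%). Ltbp2 had a difference of -2.42 on the log2 scale (adjusted p = 0.0460, edgeR): its dyW to WT change was 4.33 in untreated and 1.91 in PBS mice. Eln, elastin, had -2.47 (adjusted p = 0.0426, edgeR), with means of 10.3 and 105 RPKM in untreated WT and dyW mice and 29.0 and 42.7 RPKM in WT PBS and dyW PBS mice. Acta2, smooth muscle actin, had -1.85 (adjusted p = 0.0466, edgeR), with 23.4 and 85.1 RPKM in untreated and 97.2 and 81.9 RPKM in PBS mice. Cdkn1a had -1.50 (adjusted p = 0.0497, edgeR), with 6.30 and 72.1 RPKM in untreated and 12.9 and 43.0 RPKM in PBS mice. Each call was lost in some of the 13 fits without 1 mouse: 9 for Ltbp2, 8 for Eln, 10 for Acta2 and 10 for Cdkn1a, with adjusted p up to 0.122, 0.119, 0.124 and 0.132. With the sex term the calls of Ltbp2 (0.0564), Acta2 (0.0570) and Cdkn1a (0.0602) were lost, and on unscaled RPKM (limma, pseudocounts 0.1 and 1) those of Eln (adjusted p = 0.0663 and 0.0671) and Cdkn1a (0.0605 and 0.0574). Treatment, labelled age and cohort cannot be told apart in these differences.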

How the results depend on the processing

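Over the alternatives the 10 genes gave 1080 values, of which 1038 kept their direction and side of the threshold, or changed sign with neither value called (59); 19 lost and 19 gained the threshold, and 4 reversed. The reversals were on unscaled RPKM in untreated mice: Tgfb2 0.45 and 0.38, and Tgfbr1 0.0030 and 0.0024, with pseudocounts of 0.1 and 1; Strap also reversed (0.11 and 0.10). RPKM there carries no composition scaling; its median over all genes was 0.51, beside 0.03. In untreated mice 0 of the 10 genes were called lower on both RPKM settings, and 0 to 1 with 1 mouse left out (0 without WT replicate 2 or dyW replicate 3). With PBS the genes called higher numbered 1 with no filter, 1 with unique reads, 2 with all 18 libraries, 3 and 2 on RPKM (pseudocounts 0.1 and 1), 2 in DESeq2, and 0 to 2 with 1 mouse left out (2 without WT replicate 1 or dyW replicate 3). Under TD139, dyW against WT gave 0 on RPKM with pseudocount 1 and 0 with any 1 mouse left out. For the difference between cohorts, called lower were 0 with the sex term, 2 in DESeq2, and 0 to 1 with 1 mouse left out.

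Calls over all genes moved as well. With PBS, against 411, they were 656 with all 18 libraries, 952 and 814 on RPKM, 864 in DESeq2 and 125 to 601 with 1 mouse left out. Under TD139, against 160, they were 320 with no filter, 431 with all 18 libraries, 552 and 296 on RPKM, 739 in DESeq2 and 6 to 91 with 1 mouse left out. For TD139 against PBS DESeq2 called 4 genes in dyW, 3 in WT and 1 for their difference, where edgeR called 0. For the difference between cohorts, against 272, they were 75 and 111 on RPKM, 1189 in DESeq2 and 0 to 637 with 1 mouse left out. Leaving out 1 mouse moved these counts in both directions (601 without WT PBS replicate 1 with PBS, 637 without WT PBS replicate 3 between cohorts), and the causes of these shifts were not tested. WT TD139 has 2 mice, and without 1 of them the remaining mouse is assumed to vary like the other groups. Depth limits Ltbp2 most, at 17 to 86 reads in WT libraries. No paired analysis was possible because each library carries its own animal number.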
